A study of Rattus norvegicus with 91 samples.

Results

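The translation factors and tRNA synthetases described here are the rat genes whose symbol begins with Eif1 to Eif6, Eef1 or Eef2, or has the form of a cytosolic aminoacyl-tRNA synthetase (Aars1, Cars1 and so on), with Eif4ebp3 left out. The symbol pattern reads no measured value, but Eif4ebp3 also matches it, and the members were chosen with earlier results of these data known. The rule took in 72 of the 10621 genes with a symbol on either array design, represented by 131 of 24606 probe sets. A few members serve the machinery without being part of it: Eef1akmt1 and Eef1akmt4 are methyltransferases named for elongation factor 1A, Eef1e1 is a scaffold of the multi-synthetase complex, and Eif4enif1 carries eIF4E between compartments.

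Livers of Wistar rats given methylprednisolone, a synthetic glucocorticoid, at 50 mg/kg were compared with control livers (Ctr) of the same course. The short course, on an older Affymetrix rat array, held 47 arrays: 43 from 16 times between 0.25 and 72 h after dosing, with 2 or 3 arrays a time, and 4 of Ctr. The long course, on a later and larger array, held 44: 4 arrays at each of 10 times between 6 and 168 h, and 4 of Ctr. The labels give Wistar rats, liver and total RNA for every group, and no genotype beyond the strain, no age, no route or schedule of dosing, no vehicle and no time of day. The dose of 50 mg/kg is listed for the Ctr arrays as well, with time 0, which does not settle whether the controls were dosed. Since the controls of each course stand at time 0 alone, time after dosing and time of day cannot be told apart. Nothing says that replicates came from separate rats, so p-values here reflect only how far arrays of a group scatter, and that scatter may be technical.

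Protein synthesis begins when eIF2, loaded with GTP and the initiator tRNA, joins the small ribosomal subunit together with eIF1, eIF1A, eIF5 and the many-subunit scaffold eIF3. The eIF4 factors bring in the mRNA: eIF4E binds its cap, the helicase eIF4A unwinds it and eIF4G bridges them, while the eIF4E-binding proteins hold eIF4E back when the kinase mTORC1 is inactive. The exchange factor eIF2B recharges eIF2, and the eIF2alpha kinases block that step under stress. eEF1A and eEF2 then drive elongation with amino acids that the synthetases attach to their tRNAs. Liver makes most plasma proteins and adjusts this machinery to hormones and amino acid supply, and glucocorticoids are known to raise amino acid handling in hepatocytes.

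Signal is the linear array intensity deposited for each probe set, and differences are given on the scale of log2(signal + 32), which understates the change of dim probe sets. Of the members, 43 of 47 probe sets (27 of 30 genes) were bright enough to be tested in the short course and 78 of 84 (69 of 71 genes) in the long course. The others were dim in the livers of that course: Eif2ak1, Eef1a2 and Iars1 and a second probe set of Eif2ak2 in the short course, and Eif4e3, all 4 probe sets of Eef2k and a second one of Iars1 in the long course. Called means an adjusted p under 0.05 by limma, with Benjamini-Hochberg adjustment over all probe sets tested, not over the members. A gene with several probe sets is described by its brightest, and disagreement among them is stated.

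Some properties of the arrays bear on what follows. In the short course the 6 h replicate 3 array had been scaled to 150 and not to 801 like the rest, and was rescaled here. In that course 9 of 47 arrays had a mean correlation below 0.9 with the other arrays. Among them were Ctr replicates 1 and 3, 4 h replicate 3, 5 h replicate 2, 7 h replicate 3 and 8 h replicate 3. Those of 4, 5, 7 and 8 h had the highest mean log2 signals of the members in the course, at 10.48, 10.46, 10.50 and 10.45 in that order. In the long course 15 of 44 arrays had high spike-in signals, 1 of them in Ctr, and these took in all 11 arrays of replicate number 4. They were unevenly spread, with 4 of 16 arrays at 6 to 18 h, 4 of 12 at 24 to 48 h and 6 of 12 at 72 to 168 h. The last included 168 h replicates 2, 3 and 4. In the long course 1 array is titled 96 h and described as 72 h, and the title was used. Of 8 hepatocyte markers, 7 were measured in each course with summed signals of 42983 to 149550 in the short-course Ctr arrays. Among these Ctr arrays Alb alone ranged from 0.15 to 32410. At 4 to 8 h of that course the sums were 55659 to 97775. There 1 of 7 was called higher and 1 lower, against 16.8% and 10.9% of all genes. In bulk liver, fewer cells of a type and less RNA per cell cannot be told apart.

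Initiation factors were higher in the short course within hours of the dose, and 0 members were called against Ctr in the windows from 12 h on. At 4 to 8 h, 21 of the 43 probe sets of members tested were called higher, where 16.4% of all probe sets tested were, and 0 were called lower, against 10.5% of all. Their median difference from Ctr was 0.42 on the log2 scale, against 0.10 over all probe sets tested, and 38 of 43 lay above 0. By the brightest probe set of each gene, 14 of 27 genes were called higher, against 16.8% of all genes. The count was 13 with each array centred on its median, 13 without Ctr replicate 4 and 6 without the 9 arrays of low correlation.

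**Figure D1:**
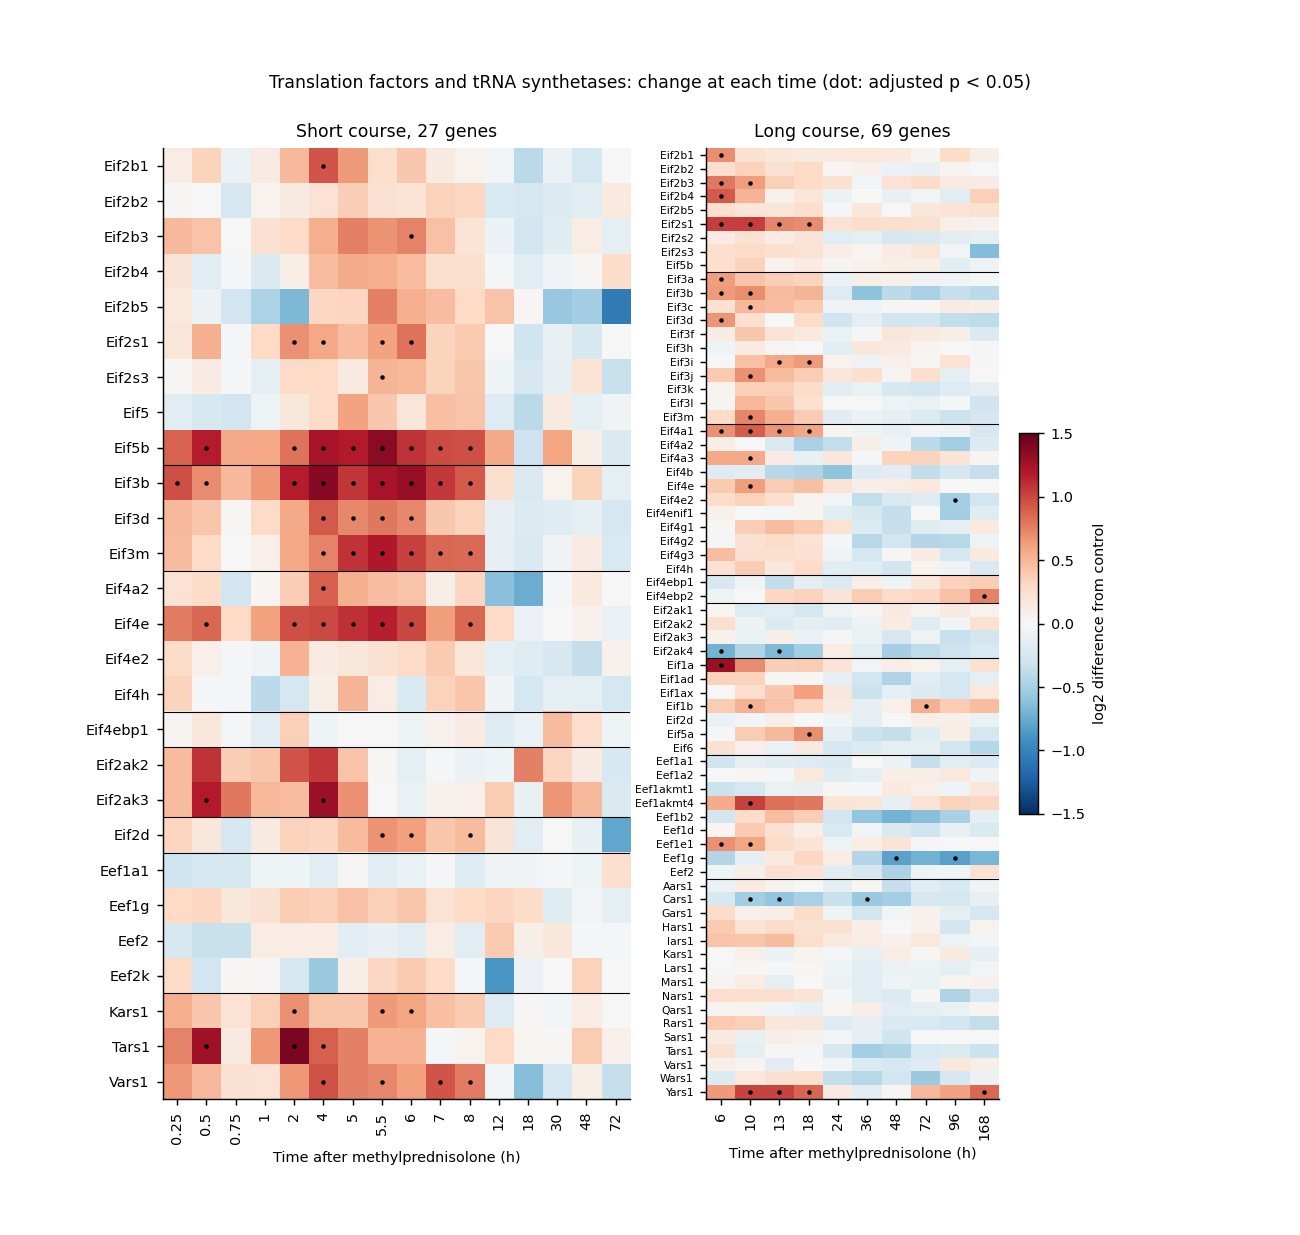
Differences from Ctr on the log2(signal + 32) scale (colour) for each gene's brightest probe set (down) at each time after dosing (across, in hours), for 27 genes of the short course and 69 of the long course; a dot marks an adjusted p under 0.05. The dots of the short course gather between 4 and 8 h and those of the long course between 6 and 18 h, in the eIF2, eIF3 and eIF4 groups.

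Factors that build the initiation complex were among the members called. All 4 eIF3 probe sets tested at 4 to 8 h were called higher, with a median of 1.01, as were 9 of 13 of eIF2, eIF2B and eIF5, with a median of 0.43. Eif3b, a core subunit on which eIF3 assembles, had signals of 3524 to 5809 in the 17 arrays of 4 to 8 h with a median of 4302, against 2030, 2701, 1586 and 1679 in the 4 Ctr arrays. Every treated array lay above every control array. Its difference was 1.16 ± 0.13 (SE), a ratio of 2.23, with an adjusted p of 3.23e-07, and the second probe set gave 1.07. Eif5b, the GTPase that joins the ribosomal subunits, had 1049 to 2010 with a median of 1653 at 4 to 8 h, against 870.1, 901.8, 493.7 and 626.2 in Ctr. These groups did not overlap either, and the difference was 1.13 ± 0.16 with an adjusted p of 6.87e-06. The calls of Eif3b and Eif5b in this window held under every alternative setting tried and with each array left out.

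Eif3m, another eIF3 subunit, had signals of 680.9 to 1172 with a median of 923.1 at 4 to 8 h, against 429.9, 576.3, 434.8 and 402.7 in Ctr. The groups were separate, and the difference was 0.96 ± 0.19 (adjusted p = 0.00037). Eif3d, which can itself bind the cap of some mRNAs, had 2189 to 4698 with a median of 3436, against 1907, 2587, 1722 and 2193. Its groups overlapped at 3 arrays of 7 and 8 h, with a difference of 0.65 ± 0.13 (adjusted p = 0.000493). Among the eIF2 group, Eif2s1, the alpha subunit that the stress kinases phosphorylate, had 1410 to 2887 with a median of 1976 at 4 to 8 h, against 1273, 1385, 1354 and 1495 in Ctr. Of the treated arrays 1, of 8 h, fell within the control range, and the difference was 0.53 ± 0.13 (adjusted p = 0.00296). Without the 9 arrays of low correlation the difference was 0.87 for Eif3m (adjusted p = 0.0567), 0.41 for Eif3d (0.163) and 0.42 for Eif2s1 (0.198).

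All tested subunits of eIF2B, the exchange factor, lay above 0 at 4 to 8 h, and the brightest probe sets of 3 were called. Eif2b3 had signals of 746.6 to 1737 with a median of 1023, against 591.9, 1031, 599.3 and 735.3 in Ctr, a difference of 0.56 ± 0.17 (adjusted p = 0.014) that lost its call without Ctr replicate 1 (0.0738), without Ctr replicate 3 (0.085), and with each array centred on its median (0.0628). Without the 9 arrays of low correlation it was 0.32 (adjusted p = 0.49). The other 2 probe sets of Eif2b3 were higher by 1.53 and 1.23. Eif2b4 and Eif2b1 were higher by 0.42 and 0.40 (adjusted p = 0.0343 and 0.045), while Eif2b5 and Eif2b2 gave 0.45 and 0.28 and were not called. Eif2s3, the eIF2 gamma subunit, was higher by 0.37 (adjusted p = 0.0287). Eif5, which triggers GTP hydrolysis on eIF2, gave 0.39 and -0.18 by its 2 probe sets, neither called. Eif2d, an eIF2-independent initiation factor, had 529.4 to 890.2 with a median of 691.9, against 581.9, 540, 458.9 and 382.9 in Ctr. Of its treated arrays 1, of 5 h, fell within the control range, and the difference was 0.50 ± 0.12 (adjusted p = 0.00224).

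The cap-binding protein Eif4e was higher as well, and its binding protein was not called. Eif4e had signals of 468.5 to 1335 with a median of 1043 at 4 to 8 h, against 601.1, 582.5, 349.1 and 516.6 in Ctr. Of the 17 treated arrays 16 lay above the control mean, and 1 array of 7 h lay within the control range. The difference was 0.96 ± 0.19 (adjusted p = 0.000292), and 0.81 without the arrays of low correlation (adjusted p = 0.0624). Of 7 eIF4 probe sets 4 were called higher, but Eif4a2 and Eif4h, the helicase eIF4A2 and its partner eIF4H, were called only by their dimmer probe sets (0.66 for Eif4a2, 0.56 and 0.38 for Eif4h) and gave 0.45 and 0.21 by the brightest. Eif4ebp1 gave 0.01 ± 0.11 by its brightest probe set (adjusted p = 0.953) and 0.34 and 0.53 by its others, with 0 of 3 called. The eIF2alpha kinases Eif2ak2 and Eif2ak3 gave 0.21 and 0.34 in this window, with 0 of 3 probe sets called. At single times the brightest probe set of Eif2ak3 was called at 0.5 and 4 h, with differences of 1.19 and 1.30. Neither of its probe sets was called in any window of the short course.

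**Figure D2:**
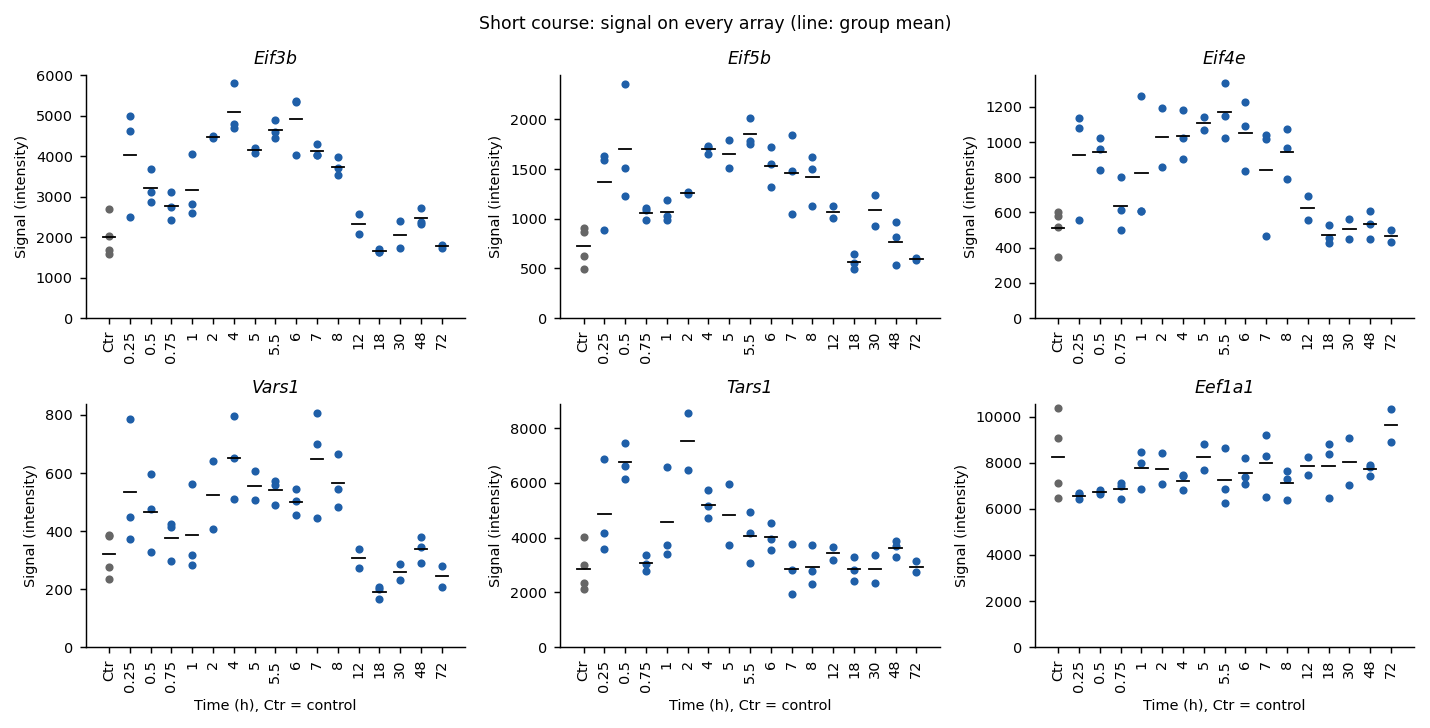
Signal (linear intensity, vertical axis) in every array of the short course (points, with a line at each group mean) against time after dosing, with Ctr at the low end, for Eif3b, Eif5b, Eif4e, Vars1, Tars1 and Eef1a1. The 17 arrays of 4 to 8 h lie above all 4 Ctr arrays for Eif3b, Eif5b and Vars1; Tars1 is highest at 0.5 and 2 h, and Eef1a1 overlaps Ctr throughout.

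Elongation factors were mostly not called. Only Eef1g, the gamma subunit of the eEF1 exchange complex, was called higher among 9 probe sets at 4 to 8 h, and their median was 0.06. Eef1g had signals of 3125 to 5964 with a median of 4618, against 2971, 4034, 3775 and 3635 in Ctr, overlapping groups that differed by 0.35 ± 0.12 (adjusted p = 0.0312). Eef1a1, which delivers charged tRNAs to the ribosome, had 6248 to 9214 with a median of 7422, against 6456, 7120, 10357 and 9074 in Ctr. The groups overlapped, and the difference was -0.11 with a 95% interval of -0.32 to 0.10. The translocase Eef2 gave -0.06 with an interval of -0.40 to 0.27 by its brightest probe set. Its other 3 probe sets gave 0.50, 0.34 and 0.06, none called (adjusted p = 0.0983, 0.19 and 0.768). Its inhibitory kinase Eef2k gave 0.08 with an interval of -0.34 to 0.50 by its brightest probe set. At 2 h alone its dimmer probe set gave -1.15, with signals of 26.0 and 36.3, against 50.9 to 159.5 in Ctr.

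The short-course array measured 3 synthetases well enough to test. Vars1, which charges valine tRNA, had signals of 443.5 to 806.8 with a median of 545.4 at 4 to 8 h, against 386.7, 383.2, 275.8 and 236.4 in Ctr. The groups did not overlap, and the difference was 0.80 ± 0.17 (adjusted p = 0.000979). Kars1, the lysine enzyme, had 1021 to 1624 with a median of 1251, against 871.2, 892.8, 887.4 and 821.1. It too lay above every control array, with a smaller difference of 0.48 ± 0.14 (adjusted p = 0.00825). Without the arrays of low correlation the difference was 0.75 for Vars1 (adjusted p = 0.0606) and 0.45 for Kars1 (0.203). Tars1, the threonine enzyme, gave 0.45 ± 0.18 in this window and was not called (adjusted p = 0.0571), though at 4 h alone it was higher by 0.89 (adjusted p = 0.011).

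A few members were already higher within the first hour. At 0.25 to 0.75 h, 5 of 43 probe sets were called higher against 2.47% of all, and at 1 to 2 h 8 were, against 7.22% of all; 0 were called lower in either window. Tars1 had signals of 7454, 6154 and 6638 at 0.5 h, against 2995, 4019, 2112 and 2331 in Ctr, and 6466 and 8564 at 2 h. All 5 of these arrays lay above the controls, and the single-time differences were 1.27 and 1.41 (adjusted p = 0.00138 and 0.00164). At 0.75 h Tars1 read 2792, 3045 and 3370, all within the control range, and at 7 h 2822, 1948 and 3757, of which 1 lay below it.

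Over the windows, Tars1 was higher by 0.72 at 0.25 to 0.75 h and by 1.03 at 1 to 2 h (adjusted p = 0.0323 and 0.00232). Eif5b was higher by 0.88 and 0.70, and Eif3b by 0.72 and 0.92, in the same order (adjusted p = 0.00437, 0.0197, 0.0045 and 0.000563). Eif4e, Kars1 and Eif2s1 joined at 1 to 2 h with 0.78, 0.52 and 0.49 (adjusted p = 0.0211, 0.0353 and 0.0411), and a dimmer probe set each of Eif2b3 and Eif3b was called in both windows. These early calls leaned on single arrays. Without Ctr replicate 3 the count at 0.25 to 0.75 h was 0, with adjusted p of 0.05002 for Eif3b, 0.0573 for Eif5b and 0.208 for Tars1, and the count at 1 to 2 h was 4. At 0.25 to 0.75 h Tars1 also lost its call without Ctr replicate 4 (0.153), 0.25 h replicate 2 (0.0736) or 0.75 h replicate 3 (0.0517). At 1 to 2 h the call ended without 1 h replicate 2 or either 2 h array for Eif2s1 and Kars1, without 1 h replicate 2, 2 h replicate 2 or Ctr replicate 3 for Eif4e, and without 1 h replicate 2, 2 h replicate 1, Ctr replicate 3 or Ctr replicate 4 for Eif5b. It also ended without any of the 4 Ctr arrays for Eif2s1 and without Ctr replicate 1, 3 or 4 for Kars1. Without the 9 arrays of low correlation 0 members were called in either early window, and at 1 to 2 h Tars1 gave 0.99 (adjusted p = 0.0736) and Eif3b 0.79 (adjusted p = 0.102). Without the 2 arrays of 2 h, a setting chosen after seeing the data, 0 members were called at 1 to 2 h.

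Single times showed when the calls fell. At each time alone, 6 probe sets were called higher at 0.5 h (5.95% of all probe sets tested), 8 at 2 h (8.78%), 16 at 4 h (10.5%) and 8 at 8 h (8.24%). Counts were 0 at 0.75 h, 1 h and 12 h, where 0.114%, 0.981% and 0.212% of all probe sets tested were called higher. At 2 h 1 probe set of a member was called lower, against 6.18% of all. At 12 to 18 h, 0 members were called in either direction, against 0.997% of all, with 2 at an unadjusted p under 0.05 and a lowest adjusted p of 0.108, that of Eif4a2 at -0.69. At 30 to 72 h again 0 were called, against 0.0981% of all, with 2 at an unadjusted p under 0.05.

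Set directly against 4 to 8 h, 28 of 43 probe sets were lower at 30 to 72 h, against 21.5% of all probe sets tested, and 0 were higher. The median difference was -0.42, against -0.06 over all. The list covered 4 of 4 eIF3, 7 of 7 eIF4 and 12 of 13 eIF2, eIF2B and eIF5 probe sets, 2 of 9 elongation probe sets and 2 of 3 synthetases. Eif2b5, the catalytic subunit of eIF2B, had signals of 37.6 to 104.5 with a median of 66.2 at 30 to 72 h, against 106.1 to 274.2 with a median of 175.3 at 4 to 8 h, a difference of -1.17 ± 0.20 between windows that did not overlap. In Ctr this dim probe set read 146.2, 145.5, 47.0 and 153.9. Its differences from Ctr were 0.45 at 4 to 8 h and -0.72 at 30 to 72 h, neither called. Eif3b was lower by 1.08, Eif3m by 1.01, Eif5b by 0.98 and Eif4e by 0.97, with adjusted p between 8.13e-09 and 6.47e-06. Across the 16 times together, 26 of 43 probe sets of members changed by the F test, against 33.6% of all.

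Markers of other cells moved in the same windows. Of 5 neutrophil genes listed the 2 tested, S100a8 and S100a9, were called higher at 0.25 to 0.75 h, 1 to 2 h and 4 to 8 h. In these windows 2.65%, 7.91% and 16.8% of all genes were called higher, and 10.9% were called lower at 4 to 8 h. The neutrophil sums were 499.3 to 4575 at 4 to 8 h, against 105.7 to 606.0 in Ctr. Of 3 Kupffer cell and macrophage genes at 4 to 8 h, Cd14 was higher by 2.01, Clec4f was lower and C1qb was not called, with a median of 0.09. Their sums were 7403 to 18571 against 5580 to 7405 in Ctr. Cd14 weighed most in these sums, with a mean signal of 5313 against 3229 for C1qb, the next. Of 4 endothelial genes 2 were higher and 1 lower, with sums of 1844 to 3368 against 1109 to 1333 in Ctr. Lyve1 weighed most in these sums, with a mean signal of 1115 against 414.6 for Pecam1, the next. Of 4 stellate and fibroblast genes tested 1 was higher and 0 lower, and of 2 cholangiocyte genes 0 were higher and 1 lower. The log2 ratio of the 3′ to the 5′ GAPDH control probe sets, a sign of RNA quality, was -0.02 ± 0.12 at 4 to 8 h and 0.13 ± 0.08 at 12 to 18 h, against 0.14 ± 0.14 in Ctr (SD, n = 17, 5 and 4 arrays). Their part in the members' changes was not tested.

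In the long course initiation factors were higher in the first day. At 6 to 18 h, 12 of 78 probe sets of members were called higher, against 4.64% of all probe sets tested, and 4 lower, against 4.67% of all. The median difference was 0.18, against -0.03 over all, and 58 of 78 lay above 0. By the brightest probe set 12 of 69 genes were higher and 2 lower, against 4.98% and 5.16% of all genes. Without Ctr replicate 1, 7 probe sets were called. By single time 10 were higher at 6 h (2.8% of all), 13 at 10 h (4.07%), 5 at 18 h (2.52%) and 0 at 24 h (0.747%).

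Eif2s1 and the helicase Eif4a1 were both higher. Eif2s1 had signals of 296.6 to 569.2 with a median of 482.1 in the 16 arrays of 6 to 18 h, against 214.8, 324.4, 288.2 and 129.6 in Ctr. Only 2 arrays of 18 h fell below the highest control, and the difference was 0.88 ± 0.16 (adjusted p = 0.000231). Eif4a1, which unwinds the 5′ ends of mRNAs, had 1692 to 2753 with a median of 2165, against 1222, 1740, 1284 and 1131. Its groups overlapped at 2 treated arrays, and the difference was 0.71 ± 0.13 (adjusted p = 0.000179). With the spike-in level as a block these differences were 0.88 and 0.71. Among the 29 arrays of low spike-in signal alone they were 0.69 and 0.64 (adjusted p = 0.00668 and 0.00784), and among the 15 of high signal, which hold a single Ctr array, 1.43 and 0.92 (adjusted p = 0.155 and 0.432).

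All 11 eIF3 probe sets lay above 0 at 6 to 18 h, with a median of 0.39, and 4 were called. Eif3b had signals of 236.7 to 408.1 with a median of 314.9, against 208.7, 266, 151.3 and 178.3 in Ctr. Of the 16 treated arrays 12 lay above every control, with a difference of 0.58 ± 0.15 (adjusted p = 0.00829, and 0.0793 without Ctr replicate 3). Eif3m, Eif3a and Eif3c were higher by 0.48, 0.44 and 0.39 (adjusted p = 0.0339, 0.0245 and 0.0345). Eif3j, Eif3i and Eif3d gave 0.49, 0.41 and 0.30 and missed the threshold narrowly (adjusted p = 0.061, 0.0536 and 0.0586), and Eif3h gave 0.02. Without Ctr replicate 4 the adjusted p was 0.312 for Eif3m and 0.209 for Eif3a, and without Ctr replicate 1 it was 0.096 and 0.0641.

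All 10 probe sets of eIF2, eIF2B and eIF5 also lay above 0, with a median of 0.26 and 2 called. Besides Eif2s1 these included Eif2b3, with 81.7 to 196.5 and a median of 125.5 at 6 to 18 h, against 77.5, 90.7, 90.2 and 66.4 in Ctr. Its highest values were those of 6 h, at 196.5, 147.9, 150.3 and 159.9, all above the controls, and the window difference was 0.52 ± 0.11 (adjusted p = 0.00115). Eif1a, whose product helps the ribosome scan, read 714.1, 500.1, 562 and 423.2 at 6 h, against 167.8, 282.9, 290.7 and 114.9 in Ctr. These groups were separate, and the single-time difference of 1.29 (adjusted p = 0.00113) was followed by 0.71, 0.37 and 0.38 at 10, 13 and 18 h, none of them called. Its window difference of 0.69 (adjusted p = 0.0266) rested on the controls, with an adjusted p of 0.121 without Ctr replicate 1 and 0.238 without Ctr replicate 4. Eif1b, a relative of the start-codon factor eIF1, was higher by 0.41 (adjusted p = 0.0321, and 0.115, 0.168 and 0.0516 without Ctr replicates 1, 3 and 4).

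Eif4e was higher by 0.47 ± 0.13 at 6 to 18 h (adjusted p = 0.0207), with signals of 476.9 to 768.1 and a median of 654.2, against 433.7, 510.3, 549 and 384.1 in Ctr. The groups overlapped, the second probe set gave 0.30 and was not called, and the adjusted p was 0.087 and 0.129 without Ctr replicates 1 and 4. Eif4b, a cofactor of the helicase, was lower by 0.37 by its dimmer probe set (adjusted p = 0.0426) and gave -0.31 by its brighter one. Eif4ebp1 and Eif4ebp2 gave -0.20 and 0.14 and were not called. The 5 eIF2alpha kinase probe sets all lay below 0, with a median of -0.04, and Eif2ak4, the sensor of uncharged tRNA, was called lower. It had 9.8 to 58.7 with a median of 43.9, against 101.9, 70.4, 100.4 and 51.2 in Ctr, dim signals that overlapped only at the lowest control. The difference was -0.58 ± 0.16 (adjusted p = 0.0143, and 0.0988 and 0.0935 without Ctr replicates 1 and 3). Of the 10 probe sets grouped as elongation factors by their Eef symbol, 1 was called. It was that of the methyltransferase Eef1akmt4, which is not itself an elongation factor, and no elongation factor was called. This dim probe set had 35.3 to 103.9 with a median of 63.6, against 10.3 to 37.8 in Ctr. It was higher by 0.80 ± 0.21 (adjusted p = 0.0101, and 0.0795 without Ctr replicate 1). Eef1a1 and Eef2 gave -0.20 and 0.12, with 95% intervals of -0.47 to 0.06 and -0.20 to 0.44. The Eef1a1 probe set carries the suffix for probes shared between transcripts.

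**Figure D3:**
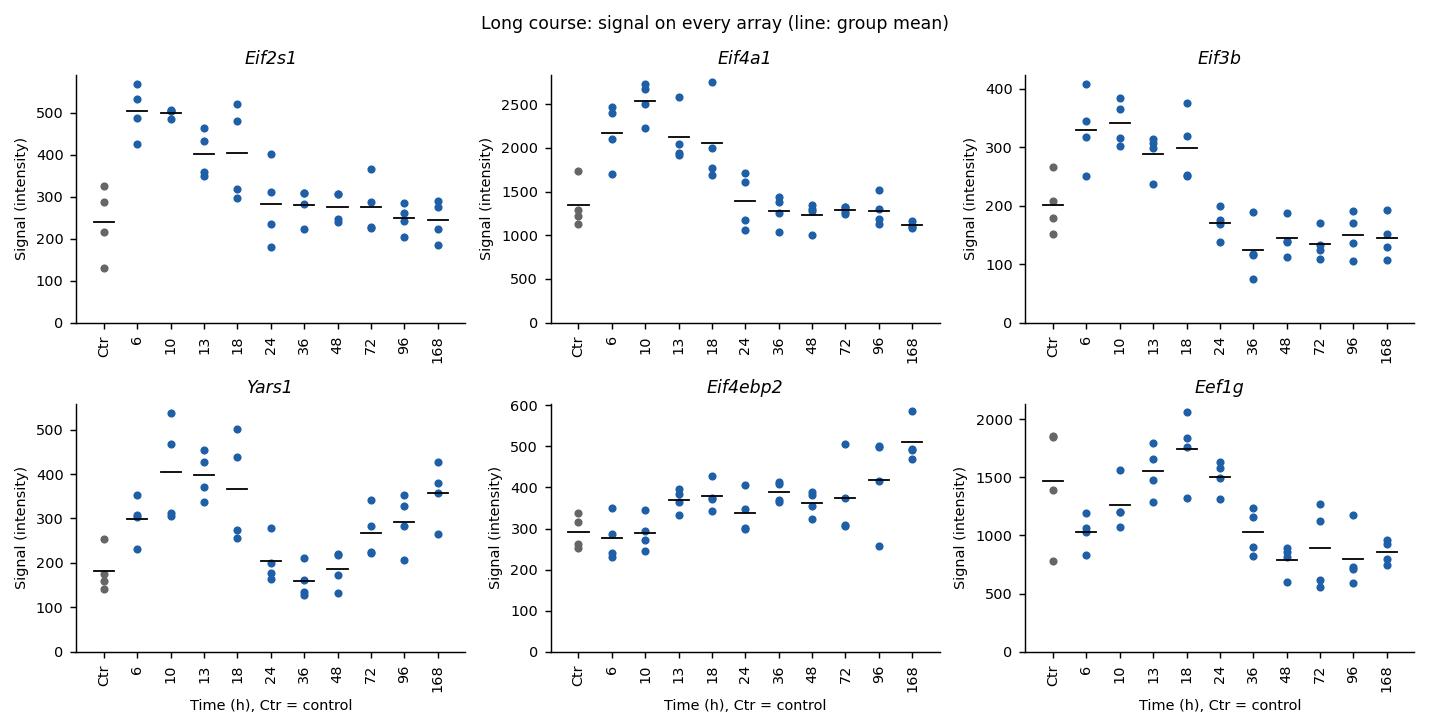
Signal (linear intensity, vertical axis) in every array of the long course (points, with a line at each group mean) against time after dosing, with Ctr at the low end, for Eif2s1, Eif4a1, Eif3b, Yars1, Eif4ebp2 and Eef1g. Eif2s1, Eif4a1 and Eif3b are high between 6 and 18 h, Eif2s1 and Eif4a1 overlap Ctr from 24 h, the Eif3b means lie below that of Ctr from 24 h, Yars1 is high again by 168 h, and Eif4ebp2 is highest at 168 h.

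The synthetases did not move together. Of 18 probe sets at 6 to 18 h 1 was called higher and 2 lower, with a median of 0.02. Yars1, the tyrosine enzyme, had signals of 231.9 to 537.6 with a median of 344.5, against 159.6, 253.4, 175.7 and 141.9 in Ctr. Only 1 array of 6 h lay below the highest control, and the difference was 0.89 ± 0.16 (adjusted p = 0.000319). Cars1, the cysteine enzyme, had 107.7 to 218.4 with a median of 145.1, against 201.4, 189.8, 206.7 and 267.6. Of the 16 treated arrays 15 lay below the control mean, and the difference was -0.46 ± 0.12 (adjusted p = 0.0144, and 0.113 without Ctr replicate 4). Its second probe set was lower by 0.52 and a further probe set gave -0.31, not called. Iars1, Rars1, Hars1, Nars1 and Gars1 gave 0.39, 0.27, 0.28, 0.23 and 0.18, none called, and the other 9 genes lay between -0.02 and 0.11. Of those 9, Vars1, Kars1 and Tars1 gave -0.01, 0.01 and 0.02. Among the arrays of low spike-in signal alone, Yars1, Eif3b, Eif2b3 and Cars1 gave 0.85, 0.57, 0.44 and -0.40 and stayed called, while Eif3m, Eif3a, Eif1a and Eif1b gave 0.35, 0.37, 0.54 and 0.37 and lost their calls (adjusted p = 0.157, 0.0627, 0.0593 and 0.0871).

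Synthetase genes are known targets of the transcription factor ATF4, which pairs with C/EBP proteins on the C/EBP-ATF response element (CARE). Promoter windows from 250 bases before to 50 after the annotated start were searched on both strands for TGATGNAA. RefSeq (build GRCr8) held such a window for 64 of the 72 members. Of these 8 had a match, 7 of 14 synthetases and 1 of 50 other members, against 3.82% of 27457 promoters. Matches of 7 genes are shown, because the element divides the synthetases into 2 groups whose values can be set side by side. Each is given 5′ to 3′ on the strand that reads the element, with its letters in capitals.
Yars1: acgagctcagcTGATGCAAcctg
Cars1: tttccagaatcTGATGCAAccgcggcgccg
Iars1: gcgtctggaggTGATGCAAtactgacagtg
Nars1: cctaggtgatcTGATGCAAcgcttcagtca
Tars1: agctaaccagcTGATGCAAcgggacgccag
Mars1: ggagcccacgcTGATGCAAccggaacgggc
Eif2s2: ttccctttcgcTGATGCAAgagcctagcgc

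These stretches lie at chr5:146820190-146820212 for Yars1, chr1:208225334-208225363 for Cars1, chr17:15193658-15193687 for Iars1 and chr18:60275778-60275807 for Nars1. The others lie at chr2:62114811-62114840 for Tars1, chr7:65023752-65023781 for Mars1 and chr3:163855588-163855617 for Eif2s2. Yars1 is on the plus strand and the rest of these on the minus strand. The printed strand is that of the gene for Yars1, Nars1 and Eif2s2 and the opposite one for Cars1, Iars1, Tars1 and Mars1. The elements of Yars1 and Cars1 lie after the annotated start, at positions 39 to 46 and 18 to 25. Those of Nars1, Mars1, Iars1, Tars1 and Eif2s2 lie within the bases from -36 to -7.

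At 6 to 18 h of the long course the 7 synthetases with a match ranged from -0.46 (Cars1) to 0.89 (Yars1) with a median of 0.02, and the 7 without ranged from -0.02 to 0.28 with a median of 0.01. With the match 1 was called higher and 1 lower, and without it 0 were called either way, which with so few genes describes these promoters and no more. Eif2s2, the eIF2 beta subunit, gave 0.17 and was not called. A glucocorticoid response element of the letters GNACANNNTGTNC, searched the same way, was in 0.422% of all promoters and in 0 of the 64 members, which says only that these letters are not in these windows.

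Few members were called between 24 and 48 h of the long course. Of 78 probe sets 0 were called higher, against 2.61% of all, and 2 lower, against 2.62% of all. Those were Cars1, at -0.46 ± 0.13 (adjusted p = 0.0223, and 0.137 without Ctr replicate 4), and the dimmer probe set of Eif4b at -0.58 (adjusted p = 0.0021), whose brighter one gave -0.32 and was not called. Eif2s1, Eif4a1 and Eif4e gave 0.24, -0.05 and 0.13, and Eif3b gave -0.39 (adjusted p = 0.145), with -0.60 at 36 h alone (adjusted p = 0.052), neither called. At 72 to 168 h Eif3b gave -0.41 (adjusted p = 0.0792).

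Members read in every window whatever their values stayed uncalled against Ctr in most of them. Eef1a1 gave -0.27, -0.07, -0.11, -0.05 and 0.05 in the 5 windows of the short course in order of time, and -0.20, -0.10 and -0.24 in the 3 of the long course. Eef2 gave -0.30, 0.11, -0.06, 0.24 and 0.04, and then 0.12, -0.29 and 0.03. Neither elongation factor was called against Ctr in any window. The kinase Eif2ak3 gave 0.82, 0.48, 0.34, 0.14 and 0.31 in the short course and -0.01, -0.12 and -0.23 in the long course. Aars1 and Wars1, the alanine and tryptophan enzymes, were tested in the long course alone, with 0.02, -0.16 and -0.15 for Aars1 and 0.11, -0.35 and -0.30 for Wars1.

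**Figure D4:**
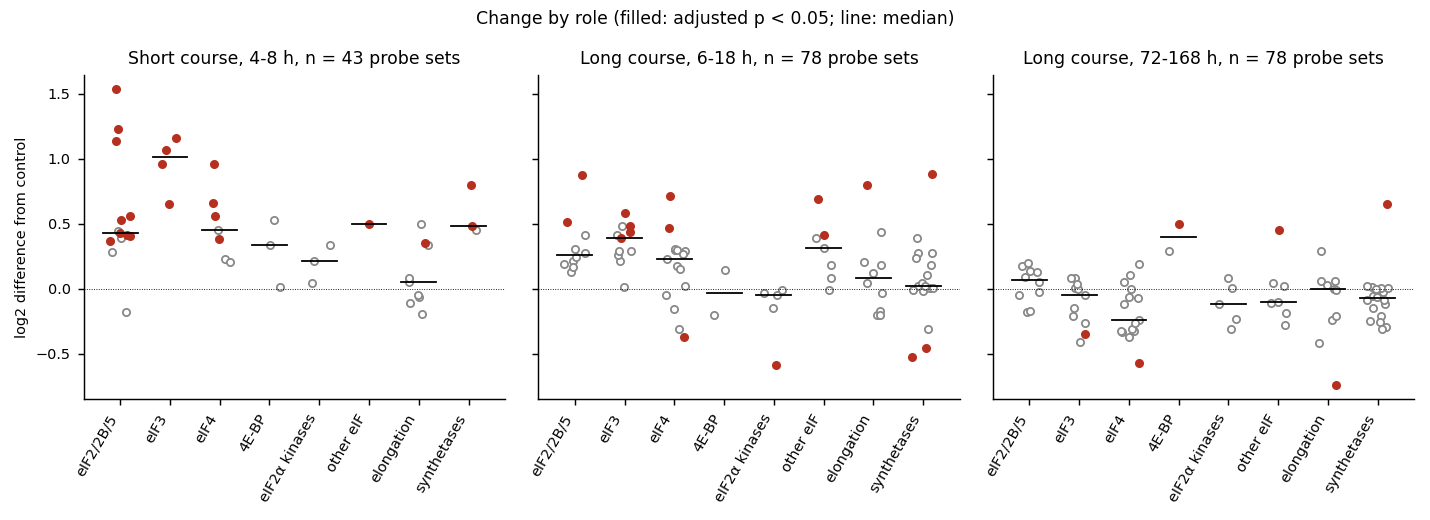
Differences from Ctr on the log2(signal + 32) scale (vertical axis) for each probe set tested, by role (across, with a line at the median), at 4 to 8 h of the short course and at 6 to 18 h and 72 to 168 h of the long course; filled points were called. The eIF3 points lie above 0 in the first and second panels, while the medians of the elongation group in these panels are 0.06 and 0.08. That group is formed by Eef symbols and in the long course also holds Eef1akmt1, Eef1akmt4 and Eef1e1.

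Few members differed from Ctr at 72 to 168 h. Here 3 of 78 probe sets were higher, against 4.81% of all, and 3 lower, against 6.01% of all, shares near the background, with a median of -0.06 against -0.03 over all. Without Ctr replicate 1 the count was 4. Yars1 had signals of 207.3 to 426.8 with a median of 305.5, against 159.6, 253.4, 175.7 and 141.9 in Ctr, a difference of 0.65 ± 0.17 (adjusted p = 0.00755). At 168 h alone it read 356.8, 379.2, 426.8 and 265.4, all above the controls.

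Eif4ebp2, an inhibitor of eIF4E, read 492.9, 490.9, 586 and 468.7 at 168 h, against 337, 251.5, 315.3 and 263.3 in Ctr. The groups did not overlap, with a difference of 0.75 at that time (adjusted p = 0.00123) and 0.50 ± 0.13 over 72 to 168 h (adjusted p = 0.00606). Among the arrays of low spike-in signal alone the window differences were 0.58 for Yars1 and 0.30 for Eif4ebp2 (adjusted p = 0.0884 and 0.258), and with the level as a block 0.68 and 0.46 (adjusted p = 0.00562 and 0.00839). Eif1b was higher by 0.46 (adjusted p = 0.0178, and 0.0668 and 0.109 without Ctr replicates 1 and 3).

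Eef1g had signals of 552.7 to 1272 with a median of 771.3 at 72 to 168 h, against 1853, 1843, 1391 and 775.9 in Ctr. The groups overlapped through Ctr replicate 4, and the difference of -0.73 ± 0.19 (adjusted p = 0.00607) lost its call without Ctr replicate 1 (0.0634) or 2 (0.0587). Eif3d had 266.9 to 398.6 with a median of 340.9, against 406.1, 463.6, 456.7 and 435.1. Every late array lay below every control, by -0.34 ± 0.10 (adjusted p = 0.0264, and 0.0864 and 0.084 without Ctr replicates 2 and 3). The dimmer probe set of Eif4b was lower by 0.57 (adjusted p = 0.00129) and the brighter one gave -0.32 (adjusted p = 0.163).

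Late and early windows of the long course were also set against each other. At 72 to 168 h 39 of 78 probe sets were lower than at 6 to 18 h, against 12.1% of all, and 5 were higher, against 9.07% of all. The median difference was -0.28, against -0.01 over all. Lower were 9 of 11 eIF3, 6 of 10 eIF2, eIF2B and eIF5, 8 of 15 eIF4, 5 of 10 elongation and 6 of 18 synthetase probe sets, and 0 of 5 eIF2alpha kinases. The 10 elongation probe sets take in all Eef symbols, Eef1akmt1, Eef1akmt4 and Eef1e1 included. Among the 29 arrays of low spike-in signal alone 25 were called in either direction, against 43 with the level as a block.

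Eif3b had signals of 105.7 to 193.5 with a median of 134.5 at 72 to 168 h, against 236.7 to 408.1 with a median of 314.9 at 6 to 18 h. The windows did not overlap, and the difference was -0.99 ± 0.10 (adjusted p = 2.57e-09). Eif4a1 had 1085 to 1514 with a median of 1216, against 1692 to 2753 with a median of 2165, again without overlap, a difference of -0.82 (adjusted p = 3.61e-09). Eif2s1 and Eif3m were each lower by 0.75, Eef1g by 0.70, Eif3d by 0.64 and Rars1 by 0.57. Nars1, Wars1 and Iars1 were lower by 0.48, 0.41 and 0.38.

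The 2 eIF4E-binding proteins tested, Eif4ebp1 and Eif4ebp2, ran the other way, with Eif4ebp3 left out by the rule. Eif4ebp1 had signals of 232.9 to 458.0 with a median of 289.9 at 72 to 168 h, against 129.1 to 342.6 with a median of 194.1 at 6 to 18 h. The windows overlapped, and the difference was 0.49 ± 0.12 (adjusted p = 0.0023). Eif4ebp2 had 258.0 to 586.0 with a median of 479.8, against 231.3 to 428.6 with a median of 343.1, a difference of 0.35 ± 0.08 (adjusted p = 0.00174). Among the low spike-in arrays alone these were 0.40 and 0.21 (adjusted p = 0.069 and 0.255). Eef1akmt1 and Cars1 were higher by 0.26 and 0.25, calls that ended when any of 4 arrays (Eef1akmt1) or 9 arrays (Cars1) was left out. Across the 10 times together, 41 of 78 probe sets changed by the F test, against 23.8% of all.

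Of the 25 genes tested in both courses, 17 had the same sign at 4 to 8 h of the short and 6 to 18 h of the long course. Called higher were 14 in the short course and 5 in the long one. All 5 were called in both, 35.7% of the short-course calls and 100% of the long-course ones. They were Eif2b3, Eif2s1, Eif3b, Eif3m and Eif4e. Across these genes the differences of the courses had a Pearson r of 0.50 and a Spearman rho of 0.52, given as a description, since genes are not independent replicates and the windows, arrays and controls differ. Eif5b, at 1.13 in the short course, gave 0.19 in the long course (adjusted p = 0.338), and Vars1, at 0.80, gave -0.01. Whether the courses differ for these genes was not tested, since they were measured on different array designs. With no schedule of dosing given, the same number of hours may also stand for different exposures in the courses.

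**Figure D5:**
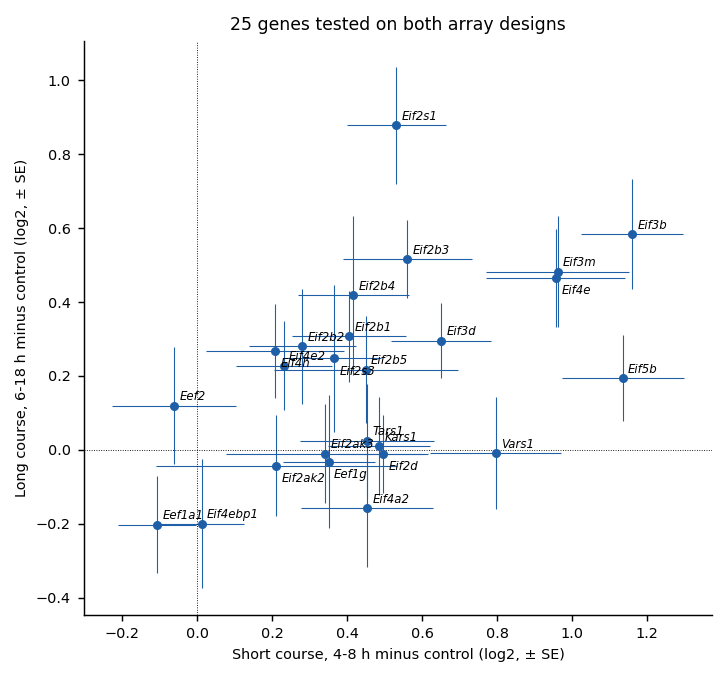
Difference from Ctr on the log2(signal + 32) scale at 4 to 8 h of the short course (horizontal axis) and at 6 to 18 h of the long course (vertical axis) for the 25 genes tested in both, with bars of 1 SE. Eif3b, Eif3m, Eif4e, Eif2s1 and Eif2b3 lie above 0 in both courses, while Eif5b and Vars1 lie at 1.13 and 0.80 in the short course and at 0.19 and -0.01 in the long course.

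Partners of the machinery outside the symbol rule were read beside it. Of all genes tested, 16.8% were called higher and 10.9% lower at 4 to 8 h of the short course, and 4.98% higher and 5.16% lower at 6 to 18 h of the long course. The 5 synthetase and scaffold genes whose symbols the rule does not take had 2 tested in the short course, both higher at 4 to 8 h: the scaffold Aimp2 by 1.00 ± 0.16 and the phenylalanine enzyme subunit Farsa by 0.70 ± 0.18. In the long course 3 of 5 were higher at 6 to 18 h, Eprs1 by 0.77, Farsb by 0.63 and Aimp2 by 0.40, and Eprs1, which charges both glutamate and proline tRNAs, was also higher by 0.80 at 72 to 168 h, against 5.09% of all genes called higher and 6.46% lower there. Of termination and recycling genes, 2 of 6 were higher at 6 to 18 h of the long course, the recycling factor Abce1 by 0.48 and the release factor Gspt1 by 0.43, and 0 of 2 were called in the short course. Mitochondrial translation factors had 0 of 2 called in any window of either course. Of mitochondrial synthetases, Cars2 was the only one tested in the short course and was lower by 0.62 at 4 to 8 h, and 0 of 4 were called against Ctr in the long course.

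Targets of the integrated stress response, the programme that phosphorylated eIF2 starts, were read beside the members. In the short course 11 were tested, with a median of 0.79 at 0.25 to 0.75 h and 0.54 at 1 to 2 h, against 0.08 and 0.06 over all probe sets tested. Cebpb and Slc3a2 had the highest mean signals among them, 4195 and 3784, against 1076 for Phgdh, the next, and so dominate their summed signal. The sums over the 11 genes were 10548 to 20953 and 13455 to 19093 in these windows, above the 5463 to 10081 of Ctr. Of these genes Ppp1r15a, which directs a phosphatase to eIF2, was higher by 2.04 at 0.25 to 0.75 h and 1.98 at 1 to 2 h, as 1 and then 2 of 11 genes, against 2.65% and 7.91% of all genes called higher, the other being Cebpb at 1.64. At 4 to 8 h 2 of 11 were higher, the amino acid transporter subunit Slc3a2 by 1.46 and Cebpb by 0.75, a share near the 16.8% of all genes. In the long course 2 of 16 were higher at 6 to 18 h, Slc3a2 by 0.84 and the mTORC1 inhibitor Ddit4 by 0.53, against 4.98% of all genes, while Atf4 and Asns gave 0.25 and 0.16 and were not called. A further list of 16 genes was drawn up around mTORC1, which acts on the eIF4E-binding proteins. Not all of its genes are parts of the pathway, and it mixes inhibitors with Mtor itself, so its counts give no pathway direction. Of these 3 were higher at 72 to 168 h, against 5.09% of all genes: Klf15 by 0.71, Ddit4, also in the list above, by 0.65 and Mtor by 0.39. In the late against early contrast 4 of these 16 were higher, against 9.7% of all genes, and 1 was lower, against 12.4%. Mknk2, a kinase that phosphorylates eIF4E, was higher by 1.47 ± 0.25 and the mTOR inhibitor Deptor by 0.69 ± 0.08, and the ribosomal protein gene Rps6 was lower by 0.56 ± 0.08.

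Of 5 Kupffer cell and macrophage markers in the long course 2 were lower at 6 to 18 h, 4 at 24 to 48 h and 2 at 72 to 168 h. The shares of all genes called lower there were 5.16%, 2.81% and 6.46%. Summed signals of these markers were 948.7 to 1992 at 6 to 18 h, against 2028 to 2466 in Ctr. In the late against early contrast both erythroid markers tested were higher, Hbb by 1.98 and Alas2 by 0.53, against 9.7% of all genes. Their sums were 332.5 to 5291 at 72 to 168 h, against 264.8 to 2320 at 6 to 18 h. Hbb dominates these sums, with a mean signal of 1425 against 53.9 for Alas2. In the same contrast 2 of 5 stellate and fibroblast markers were lower, Col3a1 by 0.67 and Col1a2 by 0.47, against 12.4% of all genes. Their list had sums of 676.9 to 1261 at 72 to 168 h, against 632.3 to 1909 at 6 to 18 h. The GAPDH ratio was 0.20 ± 0.21 at 6 to 18 h and 0.36 ± 0.05 at 72 to 168 h, against 0.10 ± 0.20 in Ctr (SD, n = 16, 12 and 4 arrays). Their part in the members' changes was not tested.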

How the data were processed

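The files hold intensity, the linear signal per probe set that the authors deposited for each array; the software that made it is not given in the sources used here. Each array's 2% trimmed mean was near 801 (short course) or 150 (long course), and the short 6 h replicate 3 was rescaled to the others. Control probe sets were removed (59 and 57), 32 was added, log2 was taken, and probe sets with a mean signal under the 30th percentile were left out. Each course was fitted alone with limma 3.58.1 in R 4.3.3 (lmFit, eBayes with trend) over all its groups. Windows are unweighted means of times, and p-values were adjusted by Benjamini-Hochberg over all probe sets tested. Precision is limited by how many arrays each group holds. The procedure was tested on simulated data. Named members were up to 10 higher and 10 lower with the largest change among those called at short 4 to 8 h and long 6 to 18 h and 72 to 168 h, up to 5 each way elsewhere, and 10 read whatever their values (Eif4ebp1, Eif4ebp2, Eif4e, Eif2s1, Eif2ak3, Eef1a1, Eef2, Eef2k, Aars1, Wars1); others were named after their values were seen. The members and lists were chosen with earlier results of these data known. Same-numbered replicates had a mean correlation of deviations of -0.006 and 0.052, with 75 of 220 long-course pairs over 0.1; numbers were not taken as pairs, since not every pair passed 0.1. Promoter matches of 1 gene are not reported here.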

Additional observations from a re-analysis of the deposited data

Results flagged for a closer look

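Single arrays stood apart from the other 3 of their group in 13 cases, among 17 groups of 4 checked in the short course and 253 in the long course, where chance gives about 1 in 20. In the short course Eif2b5 read 46.98 in Ctr replicate 3, against 145.5 to 153.9 in the other Ctr arrays. At 10 h of the long course Eif2s1 read 485.1 in replicate 2 (others 503.7 to 507.6), Eif2b3 125.5 in replicate 3 (145.8 to 149.9) and Eif3m 1005 in replicate 2 (1302 to 1351). At 13 h replicate 4 read 299.9 for Eif1b (202.6 to 214.4) and 236.7 for Eif3b (299.5 to 313.7). Eef2 read 2532 in 24 h replicate 4 (1311 to 1447), Aars1 807.2 in 36 h replicate 4 (615.8 to 644.4) and Eif4ebp1 140.8 in 48 h replicate 1 (265.5 to 271.0). At 72 h Eif3d read 398.6 in replicate 4 (339.8 to 348.2). Wars1 read 48.7 in 72 h replicate 3 (97.7 to 106.5), 135.6 in 96 h replicate 2 (103.8 to 105.9) and 278.4 in Ctr replicate 2 (107.3 to 116.8).

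Late and early windows differed by limma's test of the difference itself. At 30 to 72 h against 4 to 8 h of the short course the differences were -1.17 for Eif2b5, -1.08 for Eif3b, -1.01 for Eif3m, -0.98 for Eif5b and -0.97 for Eif4e. At 72 to 168 h against 6 to 18 h of the long course they were 0.49 for Eif4ebp1, 0.35 for Eif4ebp2, 0.26 for Eef1akmt1 and 0.25 for Cars1. They were -0.99 for Eif3b, -0.82 for Eif4a1, -0.75 for Eif2s1, -0.75 for Eif3m and -0.70 for Eef1g.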

How the results depend on the processing

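None of 846 alternative values turned the direction of a call. Of 65 calls of named genes 42 stayed past the threshold with each array left out and 12 under every alternative. In the short course the count of members called was 5 at 0.25 to 0.75 h, 8 at 1 to 2 h and 21 at 4 to 8 h. With each array centred on its median it was 3 at 0.25 to 0.75 h and 13 at 4 to 8 h. Without the 9 arrays of low correlation the 3 windows gave 0, 0 and 6. With 6 h replicate 3 on its own scale they gave 0, 1 and 7, with 8 in place of 26 at any time and 13 in place of 28 for 30 to 72 h against 4 to 8 h. Without the 2 h arrays, a setting chosen after seeing the data, 1 to 2 h gave 0. In the long course the arrays of low spike-in signal alone gave 4 in place of 2 at 24 to 48 h and 25 in place of 44 for late against early; those of high signal, with 1 Ctr array, gave 0 at any time, at 6 to 18 h, 24 to 48 h and 72 to 168 h, and 1 for late against early. The cause was not tested.

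With each array left out the counts ranged from 0 to 7, 4 to 9 and 13 to 22 in the first 3 short windows, and from 7 to 19 at 6 to 18 h and 4 to 8 at 72 to 168 h of the long course. With the replicate number as a block the same short windows gave 1, 5 and 13. The block gave 20 in place of 16 at 6 to 18 h of the long course and 46 in place of 44 for late against early there. Numbers pair no samples in the labels, and 15 of 47 short and 23 of 44 long arrays correlated best with their own number.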
